A study of Arabidopsis thaliana with 6 samples.

Results

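The response of sugar-fed, dark-grown Arabidopsis thaliana seedlings to loss of oxygen was read by comparing 2 arrays of seedlings kept under anoxia with sucrose against 2 arrays of seedlings kept in air. These are 4 of the 6 arrays of the series, chosen by their titles and paired by experiment number, and the other 2 arrays come from anoxia without sucrose. All seedlings were of the ecotype Columbia glabra and had been raised in darkness for 4 days at 23 °C in sugar-free medium. The air group then stayed aerated for 6 h with no sucrose named in its labels, while the other group spent 6 h without oxygen and with 90 mM sucrose. Oxygen and sucrose therefore both differ between the groups, and their effects cannot be told apart in this comparison. Each array held the RNA of 4 whole-seedling cultures pooled after extraction. The labels call the experiments independent, so the 2 arrays of a group give the spread between experiments. In RNA from whole seedlings, fewer cells of a type and less RNA per cell cannot be told apart.

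Without oxygen, mitochondria cannot complete respiration, and plant cells fall back on glycolysis and on fermentation, in which pyruvate decarboxylase and alcohol dehydrogenase turn pyruvate into ethanol. Plants sense the lack of oxygen through group VII ethylene response factors, which are broken down when oxygen is present and switch on a common set of low-oxygen genes when it is not. Fermentation yields little ATP per sugar, so sugar supply matters for survival, and costly growth, such as the wall extension of a dark-grown hypocotyl, is usually cut back.

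Each transcript was read by a probe set, a group of short oligonucleotides, as a signal on a linear scale. The arrays share no common scale: in air the median signal was 46.2 and 30.8, and with sucrose 21.2 and 50.6. Pairs of values are given in this order, experiment 1 and then experiment 2. Each array's own median was therefore subtracted on the scale log2(signal + 16), and changes are differences on that scale. They are given with the standard error (SE) of the limma fit, and they are understated for genes with signals near or below 16. The SE draws on a spread pooled over probe sets, so it can be smaller than a gene's own spread between experiments. For the gene AT5G10040 the SE was 0.502, with changes of 7.157 and 4.905 by experiment. The sucrose array of experiment 1 stood apart in some signs of RNA quality. For the actin control the ratio of 3′ to 5′ signal was 21.6 there and 1.7 to 4.24 elsewhere, while the ubiquitin ratio of 3.69 lay within the range of the others (1.81 to 4.17), and 43.6% of its signals lay below 16, against 26.1% to 37.2%. Counts are therefore also given without that array.

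Of 15922 probe sets tested, limma with the experiment number as a block called 527 (3.31%) at an adjusted p under 0.05, and 2203 (13.8%) had an unadjusted p under 0.05. Of those called, 258 (1.62%) were higher under anoxia with sucrose and 269 (1.69%) were lower. Every called probe set changed in the same direction in both experiments and by more than 2-fold, and the arrays of the groups did not overlap for 249 of the 258 and 264 of the 269. Over all probe sets tested, 18.7% lay wholly higher and 14.8% wholly lower in the same sense. The median change of the called probe sets was 1.8 upward (2.22 and 1.42 by experiment) and -1.65 downward (-1.77 and -1.49). Without the experiment block 40 were called (0.251%), 24 higher (0.151%) and 16 lower (0.1%), all of them among the 527. Without the sucrose array of experiment 1, 65 were called (0.408%), 38 higher (0.239%) and 27 lower (0.17%). Of the 527, all that could be fitted without that array kept their direction, with medians of 1.62 and -1.5. They had already changed the same way in experiment 2, so the kept direction is no test.

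**Figure D1:**
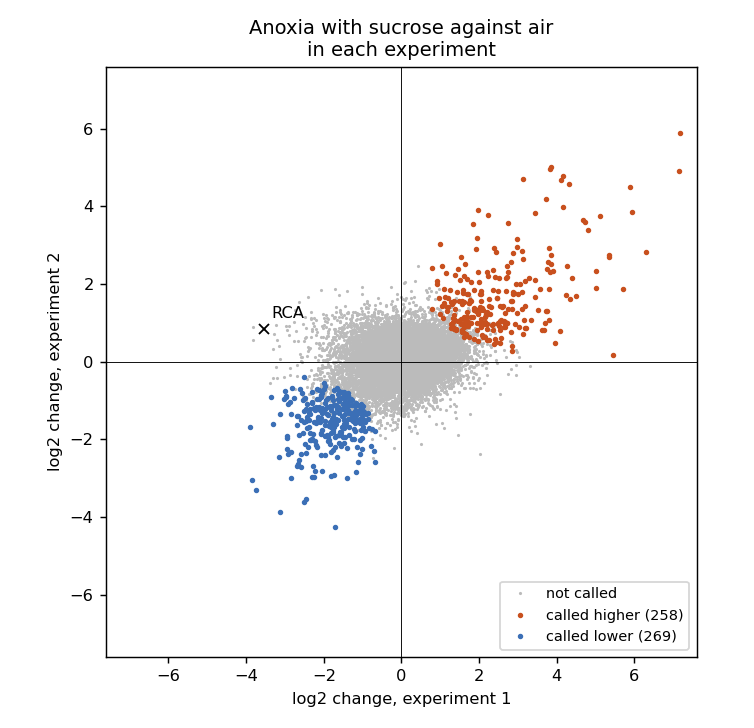
Log2 change of each of the 15922 tested probe sets between anoxia with sucrose and air in experiment 1 (horizontal axis) and experiment 2 (vertical axis). Orange points are the 258 called higher and blue points the 269 called lower, all in the quadrants where both experiments share a direction, and RCA is marked because its 2 changes, -3.53 and 0.84, point opposite ways.

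The experiments shared their largest changes but not the bulk of small ones. Across all tested probe sets the changes of experiments 1 and 2 correlated at r = 0.355, over genes that are not independent replicates, and 57.3% had the same direction. At least a 2-fold change was seen upward in both for 230 probe sets, downward in both for 262 and in opposite directions for 81. Changes were more spread in experiment 1 (SD 0.842) than in experiment 2 (SD 0.578). Experiment 1 is the one whose sucrose array had the high 3′ to 5′ ratios, and the part of RNA quality in that spread was not tested. RCA, which encodes Rubisco activase of the chloroplast, changed in opposite directions. Its signal was 2449 and 1114 in air and 111 and 2852 with sucrose, so the groups overlapped, and its change of -1.35 ± 0.63 did not pass (adjusted p = 0.343).

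Low-oxygen genes made up most of the largest rises. Of the 12 largest rises among probe sets with a single gene, 8 belong to a list of 50 genes that other work found raised by low oxygen, and 3 encode small heat shock proteins. AT5G10040, a gene of unknown function, read 4.5 on both air arrays and 1734 and 858 under anoxia with sucrose. Both sucrose arrays lay far above both air arrays, and the change was 6.03 ± 0.50 (adjusted p = 1.39e-06). CML38, a calmodulin-like calcium sensor, read 23.5 and 24.1 in air and 1436 and 808 with sucrose. Its air signals were nearly alike before centring (SD 0.306 on the centred scale), and its sucrose arrays both stood above them. CML38 rose by 4.90 ± 0.49 (adjusted p = 6.79e-06 in limma). AT4G10270, of the wound-responsive protein family, read 99.8 and 35.2 in air and 2399 and 963 with sucrose, a change of 4.44 ± 0.46 (adjusted p = 1.14e-05). In both groups its array of experiment 1 was the brighter, and the groups did not overlap.

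Further large rises were of stress protein families and of genes of unknown function. AT3G03270, of the universal stress protein family, read 270 and 117 in air and 4472 and 2292 with sucrose, a change of 4.16 ± 0.40 (adjusted p = 4.95e-06). It had the brightest signal of these genes, and its groups were well apart. AT2G17850, of the rhodanese sulfur transferase family, went from 47.5 and 30.4 to 1521 and 428, and AT5G66985, of unknown function, from 49.3 and 10.2 to 1581 and 226. AT4G33560, a second member of the wound-responsive family, read 10 and 2.1 in air, below the 16 that was added, and 797 and 78.8 with sucrose. For these last 3 genes the rise was larger in experiment 1 than in experiment 2 (5.34 and 2.75, 5.35 and 2.70, and 5.71 and 1.88), though neither experiment's sucrose array reached down to an air array. AT2G41730, the 1 gene of the 12 in neither list, rose from 57.2 and 19.7 to 902 and 212, and its probe set is of a type that can also read near-identical sequences.

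**Figure D2:**
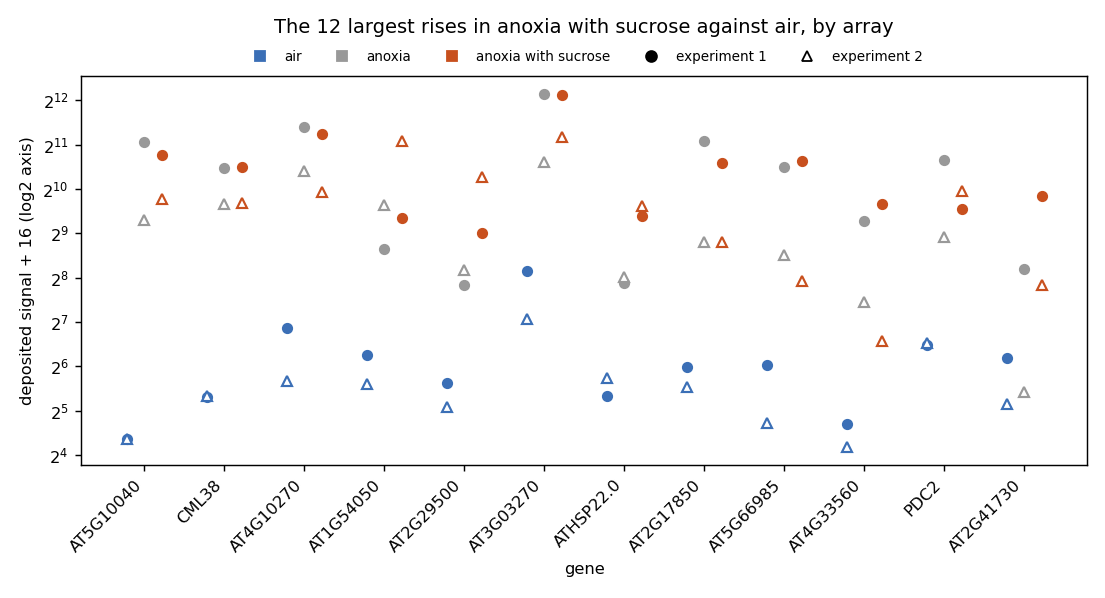
Deposited signal plus 16 on a log2 axis for the 12 genes with the largest rises, on each array of air (blue), anoxia (grey) and anoxia with sucrose (orange), with filled circles for experiment 1 and open triangles for experiment 2. For each gene both orange points lie above both blue points, and for AT4G33560 and AT5G66985 the orange points of the experiments lie far apart.

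Over the whole low-oxygen list, 26 of the 50 genes had a tested probe set. Of these, 14 rose and 0 fell, while 25 had an unadjusted p under 0.05 in either direction. The median change was 2.03 (3.03 and 1.51 by experiment), against 0.06 over all probe sets tested, and 24 of the 26 lay above 0. Over all probe sets tested, 1.62% were called higher, 1.69% lower, 13.8% had an unadjusted p under 0.05 in limma and 55.5% lay above 0. These shares are the background for every list below. The members ranged from -0.96 to 6.03. Without the sucrose array of experiment 1 the median was 1.66 and 6 rose, and without the block 4 did. Beyond the genes above, AT3G10040, a trihelix transcription factor that dampens the low-oxygen response, read 8.5 and 7.7 in air and 189 and 107 with sucrose. AT5G44730 (1.34), AT1G26270 (1.53) and AT5G42200 (1.61) were the members with the largest changes that did not pass, with adjusted p from 0.0542 to 0.125.

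Of 16 genes in the fermentation list, 3 were matched to a probe set and tested. No alcohol dehydrogenase was among these 3, so that step was not read here. PDC2, a pyruvate decarboxylase at the entry to ethanol formation, read 73.9 and 75.7 in air and 738 and 971 with sucrose. The 2 air signals were alike before centring (SD 0.31 on the centred scale), and the sucrose arrays were both far brighter. PDC2 rose by 3.36 ± 0.47, or 10.3-fold (adjusted p = 0.000251 in limma). AT4G17260, a lactate dehydrogenase, read 140 and 91.2 in air and 108 and 168 with sucrose. These signals overlapped between the groups, but the centred values did not, with changes of 0.41 and 0.27 by experiment. The change of AT4G17260 was 0.34 ± 0.37 and did not pass in limma (adjusted p = 0.753). ALDH2C4, an aldehyde dehydrogenase, was at -0.07 ± 0.43, with opposite changes in the experiments (-0.37 and 0.24).

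Among 13 tested genes of sucrose breakdown and glycolysis, out of 61 in the list, 1 rose and 0 fell. AT2G31390, of the fructokinase family that feeds fructose into glycolysis, read 310 and 172 in air and 1302 and 669 with sucrose. All sucrose signals of this gene exceeded all air signals, and it rose by 2.06 ± 0.46 (adjusted p = 0.0135, and 0.389 without the sucrose array of experiment 1). The list's median was 0.34 (0.36 and 0.54 by experiment), with 10 of 13 above 0, beside 55.5% of all probe sets tested. AT5G08570, a pyruvate kinase, stood at 0.91 ± 0.38, ALDH11A3, a glyceraldehyde phosphate dehydrogenase of the non-phosphorylating type, at 0.73 ± 0.41, and TPI, triose phosphate isomerase, at 0.72 ± 0.36. None of these 3 passed, with adjusted p from 0.272 to 0.455.

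Heat shock protein genes formed the other large group of rises. Small heat shock proteins hold unfolding proteins so that they do not clump, and of 9 tested genes 7 rose and 0 fell. AT2G29500 read 33.5 and 18 in air and 497 and 1221 with sucrose. Here the sucrose array of experiment 2 was the brighter, both lay above air, and the change was 4.40 ± 0.41 (adjusted p = 3.66e-06). AT1G54050 read 60.8 and 32.2 in air and 636 and 2138 with sucrose (4.40 ± 0.46, adjusted p = 1.14e-05). ATHSP22.0, of the endomembrane system, read 24.3 and 36.9 in air and 653 and 767 with sucrose (4.09 ± 0.43, adjusted p = 1.14e-05). In each of these genes the lowest sucrose signal was above the highest air signal by a wide margin. AT1G53540 followed with 53.8 and 20.1 in air and 263 and 597 with sucrose, a change of 3.16 ± 0.39.

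The list's median change was 3.0, with 2.87 in experiment 1 and 3.38 in experiment 2. Without the sucrose array of experiment 1 the median was 3.27 and 6 rose, and without the block 5 rose. The 2 members that did not pass were AT2G19310 at 0.82 ± 0.42 and AT4G21870 at 0.62 ± 0.52. AT4G21870 read 1164 and 91.2 in air, so its air arrays alone spanned its sucrose arrays (627 and 378).

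Of 6 tested genes of larger chaperones and heat shock factors, 4 rose and 0 fell, with a median of 1.62 (1.48 and 1.56). AT5G48570, an FK506-binding peptidyl-prolyl isomerase that works with heat shock proteins, read 35.2 and 99.3 in air and 141 and 824 with sucrose (2.36 ± 0.39, adjusted p = 0.00136). Its 2 experiments gave nearly the same change, 2.36 and 2.36, at different brightness. AT2G20560, of the DnaJ co-chaperone family, rose by 1.74 ± 0.35, Hop3, which links HSP70 to HSP90, by 1.70 ± 0.42 and Fes1A, a partner of HSP70, by 1.54 ± 0.35. Hsp70-2 (-0.18 ± 0.32) and the HSP70 gene AT3G09440 (-0.29 ± 0.47) did not pass. None of the 4 passed without the sucrose array of experiment 1, where all 4 had an unadjusted p under 0.05 and the list's median was 1.79.

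Calcium and redox genes contributed single members. Of 7 calcium signalling genes 2 rose, CML38 above and AT1G76640, another calmodulin-like gene. AT1G76640 read 1.9 and 0.6 in air and 127 and 107 with sucrose, so it was dim on both air arrays and plain on both sucrose arrays (3.06 ± 0.38, adjusted p = 8.24e-05). Of 22 genes of oxidative stress and detoxification 2 rose, and the list's median was 0.37. GRX480, a glutaredoxin of the CC type, read 10.1 and 4.1 in air and 99.7 and 81.6 with sucrose (2.33 ± 0.31, adjusted p = 0.000152). GSTU25, a tau-class glutathione transferase, read 4.4 and 7.6 in air and 94.5 and 74.4 with sucrose (2.30 ± 0.35, adjusted p = 0.000452). All 3 genes lay below 16 on both air arrays, so their changes are understated.

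The largest falls included genes of cell expansion and of auxin response. EXO, EXORDIUM, an extracellular protein that promotes cell expansion downstream of brassinosteroids, read 713 and 1933 in air and 16.5 and 264 with sucrose. Each sucrose array lay below each air array, and the change of EXO was -3.53 ± 0.43 (adjusted p = 7.03e-05). AT4G25780, which encodes a CAP family protein, read 572 and 302 in air and 8.5 and 38.7 with sucrose (-3.45 ± 0.36, adjusted p = 1.14e-05). AT3G53250, of the SAUR family of small auxin-induced genes, read 271 and 181 in air and 3.2 and 35.2 with sucrose (-2.81 ± 0.35, adjusted p = 8.6e-05). Both genes went from clear signals in air to signals near the floor on the sucrose array of experiment 1.

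The other large falls had mixed roles. AT5G08350, with a GRAM domain, read 237 and 236 in air and 14.5 and 30 with sucrose, and AT1G49200, of the RING finger family, 246 and 106 in air and 4.4 and 20.6 with sucrose. AT4G25260, of the family of invertase and pectin methylesterase inhibitors, read 1038 and 844 in air and 88.5 and 220 with sucrose. In these 3 genes neither sucrose array came near an air array, and the falls were -2.64 ± 0.30, -2.60 ± 0.31 and -2.48 ± 0.42. AT1G23030, of the U-box ubiquitin ligase family, was at -2.43 ± 0.41, and AT1G09575, of the mitochondrial calcium uniporter family, at -2.24 ± 0.29. AT5G60680 (-2.65 ± 0.46), AT3G06070 (-2.58 ± 0.37) and AT2G25250 (-2.40 ± 0.31) are given no role here. Of the 12 largest rises 8 and of the 12 largest falls 5 were also called without the sucrose array of experiment 1.

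**Figure D3:**
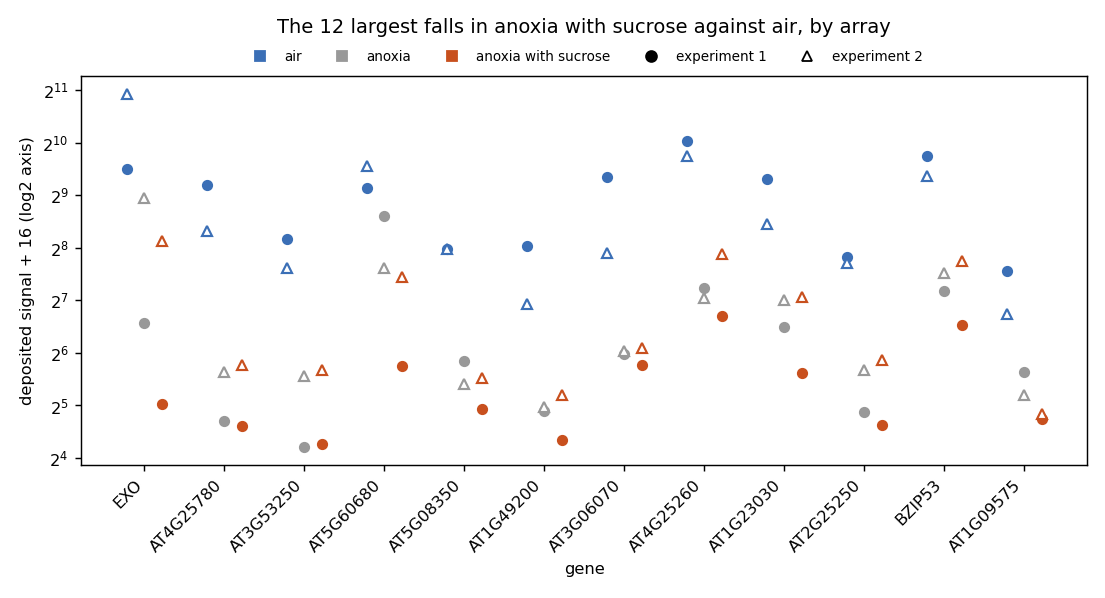
Deposited signal plus 16 on a log2 axis for the 12 genes with the largest falls, on each array of air (blue), anoxia (grey) and anoxia with sucrose (orange), with filled circles for experiment 1 and open triangles for experiment 2. For each gene both orange points lie below both blue points, and the orange circle of experiment 1 is the lower of the orange points in every gene. The signals are not centred, and that array had the lower median (21.2, against 50.6). After centring, AT5G08350 (-2.31 and -2.96) and AT1G09575 (-2.06 and -2.41) fell more in experiment 2, and the other genes fell more in experiment 1.

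Wall-loosening enzymes, the expansins and xyloglucan endotransglucosylases that let the wall yield during growth, held 6 falls and 1 rise among 22 tested genes. EXLA2, an expansin-like gene, read 393 and 149 in air and 31.7 and 42.4 with sucrose (-2.18 ± 0.34, adjusted p = 0.000673). XTH33 read 285 and 96.8 in air and 18.7 and 48.1 with sucrose (-1.85 ± 0.32, adjusted p = 0.00189). EXGT-A3, also a xyloglucan endotransglucosylase, read 808 and 607 in air and 82.1 and 202 with sucrose (-2.18 ± 0.42, adjusted p = 0.00487). In all 3 the groups did not overlap. EXPA4, an expansin, read 400 and 297 in air and 12.3 and 160 with sucrose, and its change of -2.24 ± 0.46 was much larger in experiment 1 (-3.14) than in experiment 2 (-1.34). XTH16 and EXPB1 were the remaining falls, at -1.84 ± 0.44 and -1.29 ± 0.29.

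The list as a whole moved less than these members. Its median was -0.36 (-0.28 and -0.49 by experiment), with 16 of 22 below 0, where 55.5% of all probe sets tested lay above 0. EXLA1 (-1.16 ± 0.45) and EXPA8 (-0.89 ± 0.46) did not pass, and XTH20 was at 0.56 ± 0.29. The 1 rise was AT4G30380, an expansin-like gene named after its values were seen, at 1 and 0.7 in air and 428 and 10.6 with sucrose. Its rise came almost wholly from experiment 1 (5.45, against 0.16 in experiment 2). Without the sucrose array of experiment 1 none of the 22 passed in limma, while 7 had an unadjusted p under 0.05 and the median was -0.42. The part of RNA quality in these falls was not tested beyond that.

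Wall synthesis and wall proteins had 2 falls among 14 tested genes and a median of -0.16. CSLC04, a glucan synthase of the xyloglucan backbone, read 706 and 423 in air and 52.1 and 221 with sucrose (-2.03 ± 0.43, adjusted p = 0.0103). CSLA03, of the mannan synthase family, read 154 and 133 in air and 17.4 and 68.9 with sucrose (-1.46 ± 0.30, adjusted p = 0.00816). Both genes were lower on each sucrose array than on each air array. COB, COBRA, an anchor protein of oriented cell expansion, read 363 and 563 in air and 53.4 and 580 with sucrose. Its groups overlapped, and its change of -1.09 ± 0.47 did not pass (adjusted p = 0.288).

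In the auxin list 1 of 11 genes fell and 0 rose in limma, with 3 at an unadjusted p under 0.05 in either direction. Over all probe sets tested these shares were 1.69% lower, 1.62% higher and 13.8%. IAA29, a repressor of auxin response that is high in elongating hypocotyls, read 168 and 200 in air and 15 and 45.5 with sucrose. The groups were well apart, and the change of IAA29 was -2.07 ± 0.30 (adjusted p = 0.000285), also without the sucrose array of experiment 1 (-2.36, adjusted p = 0.0382). GH3.3, an enzyme that conjugates auxin, was at 1.25 ± 0.44 and LBD29, a factor of lateral root formation, at -0.81 ± 0.28, and neither passed. The list's median was -0.18.

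**Figure D4:**
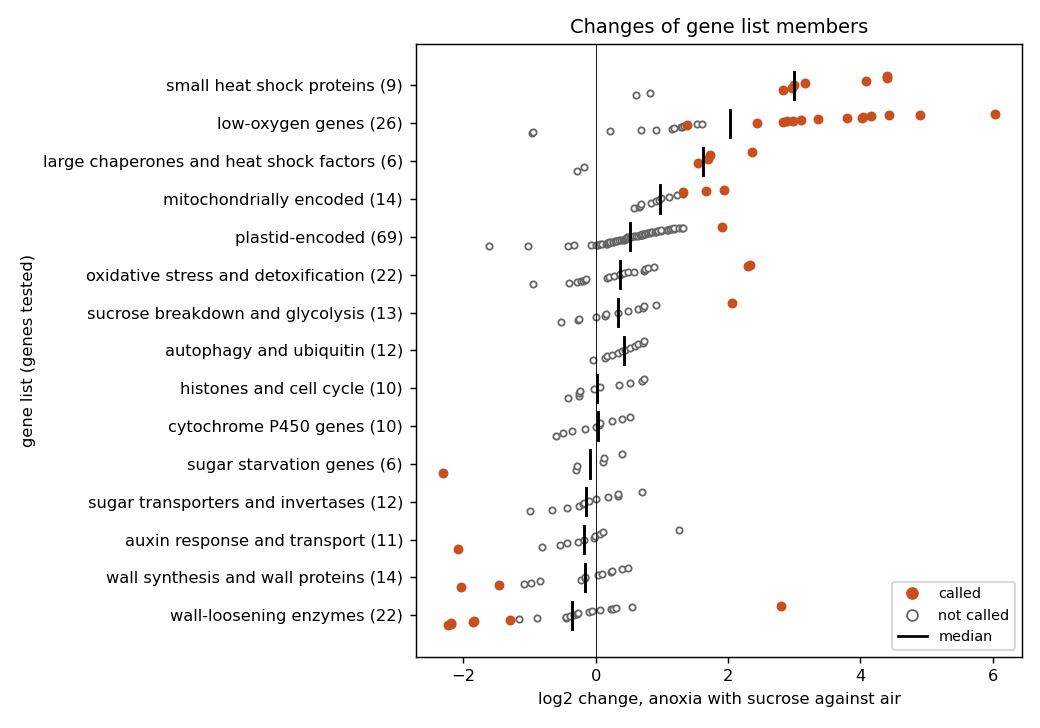
Log2 change between anoxia with sucrose and air for the tested members of 15 gene lists, with the number tested in brackets, filled points for called members, open points for the others and a bar at each list's median. Medians run from 3.0 for small heat shock proteins to -0.36 for wall-loosening enzymes. In the glycolysis, sugar starvation and auxin lists a single member was called, the one farthest from 0 in its list. The auxin members not called reach from -0.81 to 1.25.

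Genes tied to sugar status gave 1 call. Of 6 tested genes known to rise when sugar runs short, out of 25 in the list, 1 fell. This was BZIP53, a basic leucine zipper factor of the low-energy response, at 848 and 647 in air and 76.8 and 200 with sucrose (-2.30 ± 0.42, adjusted p = 0.00313). Both its sucrose signals were lower than both its air signals. Under anoxia without sucrose BZIP53 changed by -2.22 ± 0.42 against air (adjusted p = 0.00507 in limma). Its difference between the anoxia groups was -0.08 ± 0.42 and did not pass. The other members, MCCA and MCCB of leucine breakdown at 0.10 and 0.12, IVD of the same pathway at -0.28, the autophagy gene ATG8E at 0.40 and AKINBETA1, a subunit of the SnRK1 energy-sensing kinase, at -0.30, had adjusted p from 0.743 to 0.943. Of 12 tested sugar transporters and invertases, out of 60 in the list, 0 passed in limma (2 at an unadjusted p under 0.05), with a median of -0.14. SWEET16, a vacuolar sugar transporter, was lowest at -0.99 ± 0.40 (adjusted p = 0.262). The starch genes APL3 (0.04 ± 0.31) and SBE2.2 (-0.21 ± 0.46) did not pass either, and SBE2.2 changed in opposite directions in the experiments (-1.30 and 0.89).

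Most other lists gave few calls. Of 12 tested nuclear genes of the respiratory chain and organelle energy metabolism 1 rose, CYTC-2, a cytochrome c, from 103 and 60.9 in air to 271 and 274 with sucrose (1.71 ± 0.39, adjusted p = 0.0172). Its sucrose signals were alike only before centring (SD 0.586 on the centred scale), and both lay above both air arrays. CYTC-1, the other cytochrome c gene, was at 0.48 ± 0.39. Autophagy and ubiquitin genes had 0 calls among 12 in limma, and 0 at an unadjusted p under 0.05. Of these 12 genes 11 lay above 0, beside 55.5% of all probe sets tested, with a median of 0.42 (0.70 and 0.16 by experiment). Light and plastid genes had 0 calls among 30 in limma (5 at an unadjusted p under 0.05, beside 13.8% over all probe sets) and a median of 0.14. That median pools unlike groups: the 18 members above 0 were all plastid-encoded, and the 12 below 0 held all tested nuclear members. The nuclear members except LHCB4.3 changed downward in experiment 1 and upward in experiment 2, as PORB did (-1.65 and 0.69). Histone and cell cycle genes had a median of 0.02 (10 tested of 111 listed) and cytochrome P450 genes 0.03 (10 tested of 264 listed). These medians were close to that of all probe sets, with 0 calls in limma and 0 at an unadjusted p under 0.05. Most members of both lists were not tested. WRKY factors had 0 calls among 5 in limma (2 at an unadjusted p under 0.05), with WRKY22, a factor of submergence-triggered defence, highest at 1.33 ± 0.45 (adjusted p = 0.14).

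Markers of organs and reference genes gave 0 calls in limma, with 1 marker, AT3G01570, at an unadjusted p under 0.05. EXPA18 of root hairs was at -0.26 ± 0.30, SPCH and FMA of the stomatal lineage at 0.31 ± 0.39 and 0.28 ± 0.29, and AT3G01570, an oleosin of seed reserves, at 0.83 ± 0.32, the last with 1 array of air at 135 and the other at 9.3. The 4 reference genes had a median of 0.41 and ranged from 0.15 for AT4G34270 to 0.64 for GAPC2, with adjusted p from 0.385 to 0.906. The organ lists are covered by these 4 markers only, which leaves most seedling tissues without a marker, and the 1 pollen gene fell to the filter on low values.

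Anoxia without sucrose, which shares the same air arrays, gives the values to set beside these. Limma called 404 probe sets (2.54%) between it and air. Of the 258 higher and 269 lower probe sets called with sucrose, 120 and 158 were also called in the same direction without it. Among the 12 largest rises and the 12 largest falls, 11 and 11 were. The air arrays are common to both comparisons, so this overlap is not independent. The medians of anoxia without sucrose against air were 2.19 for the low-oxygen list, 2.21 for small heat shock proteins and -0.64 for wall-loosening enzymes. Anoxia with sucrose had 2.03, 3.0 and -0.36. The difference itself, anoxia with sucrose against anoxia, was called by limma for 3 of 15922 probe sets (0.0188%), all higher with sucrose and none with a gene in the annotation, and 558 had an unadjusted p under 0.05. The small heat shock list had a median of 1.12 in that comparison with 0 of 9 called by limma, while 5 had an unadjusted p under 0.05. Among the 24 genes with the largest changes against air the smallest adjusted p of that difference was 0.182, for AT2G41730. AT2G41730 read 279 and 26.7 under anoxia alone and 902 and 212 with sucrose, and changed by 1.13 ± 0.45 under anoxia alone (adjusted p = 0.281) and by 3.28 ± 0.45 with sucrose. GRX480 (0.67 ± 0.31 and 2.33 ± 0.31) and AT1G76640 (1.18 ± 0.38 and 3.06 ± 0.38) passed only in the comparison with sucrose, but their differences between the anoxia groups did not pass (adjusted p = 0.0934 and 0.147).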

How the data were processed

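Total RNA of 6 samples was labelled from about 10 µg by the usual Affymetrix procedure, per the labels. The authors deposited 1 linear intensity for each of 22810 probe sets. How they computed it (software, background correction, scaling) is not given in the sources used here. The number of arrays limits the precision.

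The 64 control probe sets were dropped, values were taken as log2(intensity + 16), and the median of every array was set to 0. The dimmest 30% by mean level were removed, and the remaining 15922 of 22746 entered limma (version 3.58.1, R 4.3.3), with 1 coefficient per group over all 6 arrays, the experiment number as a block and eBayes with an intensity trend. The tests were two-sided, with Benjamini-Hochberg adjustment over all probe sets tested. The fit had 2 residual degrees of freedom and a prior of 17. The numbers were taken to pair the arrays because the titles call them experiments and because the differences between replicates correlated across probe sets at r = 0.383 (air and anoxia), 0.392 (air and anoxia with sucrose) and 0.562 (both anoxia groups). The steps were tested on simulated data.

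Genes come from the platform annotation, with names updated through RefSeq's TAIR10.1 table: 13513 probe sets had 1 gene, 503 several and 8730 none. A gene with several probe sets was represented by the brightest. Lists were described by counts and medians, without a set test. Most lists were tested in part only, because many members had no matched probe set in the annotation. Their counts and medians therefore stand for the tested members. Lists without a matched or tested member were not analysed here. Genes were named by rule. The 12 largest rises and falls came from probe sets with 1 gene that passed with the block and moved the same way in both experiments. Of each list the rule took up to 4 passing and 3 other members, and whole lists of up to 6 genes. AT3G10040, XTH16, EXPB1, AT4G30380, the organelle genes and the genes listed last under the other observations fall outside it, chosen with their values in view. The members and lists were chosen with earlier results of these data known. Alternatives were pseudocounts of 1 and 64, scaling to a common 2% trimmed mean, quantile normalization, no filter or the 50th percentile, no intensity trend, no block, 4 arrays only, dropping arrays in turn, a threshold of 0.01 and a minimum of 2-fold.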

Additional observations from a re-analysis of the deposited data

Results flagged for a closer look

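Some control probe sets, which enter no comparison, read higher on the sucrose array of experiment 1 than on both air arrays. There the ratio of 3′ to 5′ signal was 21.6 for actin (4.24 and 1.73 in air) and 7.61 for GAPDH (2.42 and 1.82 in air). The ubiquitin ratio was not higher, at 3.69 (4.17 and 2.22 in air). The 25S ribosomal RNA signal was 848.2 (167.5 and 12.5 in air), and it was 1211 on the anoxia array of the same experiment. The sucrose array of experiment 2 had an actin ratio of 1.7, a GAPDH ratio of 1.38 and a 25S signal of 8.2. Groups of 2 arrays are too small to test an array as an outlier.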

How the results depend on the processing

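The count of probe sets called against air depended on the settings. The main counts were 527 in all, 258 higher and 269 lower. Without the replicate block, so without pairing by experiment, they were 40, 24 and 16. A pseudocount of 1 gave 314, 164 and 150, no filter on low values 805 (423 lower), and a threshold of 0.01 gave 236, 126 and 110. Leaving out 1 array gave 65 to 1070 in all, 38 to 483 higher and 27 to 587 lower. The totals were 65 and 200 when sucrose array 1 or 2 was dropped, and 267 and 1070 when air array 1 or 2 was. The other settings stayed within 1.5 times of the main counts. Against anoxia, the main count of 3 became 13 with a pseudocount of 64, 27 with no filter, 29 with the 4 arrays alone and between 0 and 30 when 1 array was left out: 29 and 30 without an air array (experiment 1 or 2), 5 and 7 without an anoxia array and 0 without either sucrose array (386 and 1544 at an unadjusted p under 0.05). It was 0 in limma without the block (161 at an unadjusted p under 0.05), with a pseudocount of 1 (636), with the common trimmed mean (628), with quantile normalization (680), without the intensity trend (539) and at 0.01 (558). Of 52 called genes that the text names, none changed direction in either experiment or under the alternatives that tested them (47 remained under the filter at the 50th percentile); 13 stayed called without the block, 15 with sucrose array 1 dropped and 40 with air array 1 dropped. The 52 were 42 genes named by the rule and the further called genes singled out last under the other observations. AT3G10040, XTH16, EXPB1, AT4G30380, nad5, nad1 and cox1 were not among them. The 24 largest changes were picked to move the same way in both experiments, so their shared direction there is no test. The other called genes were called on these same arrays, so their kept direction is no test either. Named genes that were not called could change sign, as RCA did from -1.35 to 0.30 with sucrose array 1 dropped. Where a group is left with 1 array, that array is assumed to vary like the others. The cause of these shifts was not tested. Signals below 16, 26.1% to 43.6% of an array, limit what can be said of dim genes.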

Other observations

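Transcripts encoded in the organelles gave 4 calls, all higher under anoxia with sucrose. Of 14 tested mitochondrial genes, a group added after the data were seen, all lay above 0, where 55.5% of all probe sets tested did, with a median change of 0.98 (1.52 and 0.49 by experiment), and 3 rose in limma. These were nad5, a subunit of respiratory complex I (34 and 43.7 in air, 127 and 244 with sucrose, 1.94 ± 0.35, adjusted p = 0.00269), cox1 of complex IV (1.66 ± 0.43, adjusted p = 0.0385) and nad1 of complex I (1.32 ± 0.33, adjusted p = 0.0283). Of 69 plastid genes 64 lay above 0, with a median of 0.51 that came from experiment 1 (1.16, against 0.02 in experiment 2), and 1 rose, a share near the 1.62% of all probe sets called higher: the ribosomal protein gene rps14 (1.91 ± 0.44, adjusted p = 0.0178). With the sucrose array of experiment 1 left out, which had the high 3′ to 5′ ratios, the medians were 0.55 and 0.08 and 0 genes of either group passed in limma, with 2 and 4 at an unadjusted p under 0.05. The part of RNA quality in these values was not tested.

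Further called genes with roles in growth and stress were singled out after their values were seen. Among those that fell were SKU5, a wall glycoprotein of directed root growth (1426 and 1836 in air, 105 and 1021 with sucrose, -2.09 ± 0.45), THE1, the wall-sensing receptor kinase THESEUS1 (397 and 278 in air, 36.7 and 162 with sucrose, -1.73 ± 0.39) and BRH1, a RING finger gene that responds to brassinosteroid (344 and 498 in air, 34.1 and 233 with sucrose, -1.83 ± 0.39). TBL25, of a wall acetylation family, fell by 1.88 ± 0.44 on the log2 scale, DRT100 by 2.03 ± 0.44, and RALFL24, of the RALF signalling peptides, by 1.44 ± 0.37. Among those that rose were TIL, a temperature-induced lipocalin (1023 and 740 in air, 3762 and 2916 with sucrose, 2.03 ± 0.35), UGT78D2, a flavonoid glucosyltransferase (1.23 ± 0.31), AR781 (1.92 ± 0.32) and AT5G05600, of the oxoglutarate-dependent oxygenase family (1.94 ± 0.29). Adjusted p for these 10 ran from 0.00043 to 0.035, and in limma without the sucrose array of experiment 1 from 0.0528 to 0.529.

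Nearly as many called probe sets had no gene in the annotation as had 1. Among the higher ones 126 had 1 gene, 127 none and 5 several, and among the lower ones 144, 120 and 5. The largest rise of all was an unnamed probe set, 253416_at, at 16.7 and 12.4 in air and 2819 and 2384 with sucrose (6.54, adjusted p = 1.44e-07), and the largest unnamed fall was 250012_x_at, at 587 and 572 in air and 25.3 and 41 with sucrose (-3.50). Of the 3 probe sets called between the anoxia groups, 253884_at read 8.4 and 2 in air and 35.4 and 137 under anoxia, while its sucrose arrays read 273 and 599. The others, 247691_at and 253073_at, differed between the anoxia groups by 2.19 and 1.92.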
